A study of Mus musculus with 24 samples.

Results

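The C-type lectin (Clec) genes were read as a family of 30 genes in 24 bulk RNA sequencing libraries of mouse tissue-resident macrophages. The family was taken by name: of 55487 genes in the count table, 32 protein-coding genes carry a symbol of the form Clec followed by a digit, and Clec9a and Clec10a were left out, so that 30 remained. The choice used no measured value. The libraries come from lung (alveolar macrophages), liver (Kupffer cells), brain (microglia) and spleen (splenic macrophages), each from wild-type (WT) mice and from mice of the genotype Z165KO (KO here), with 3 libraries in each of the 8 groups. The labels describe neither the Z165KO allele nor the sorting gate, the age or the strain, and they name no agent or second allele that all groups share. Each library was made from 100000 sorted macrophages. The series title sets the work in primitive hematopoiesis, with cMaf as a support of Zeb2 expression.

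C-type lectin receptors carry a fold that in some members binds sugars, in many with the help of calcium, and in others binds proteins or lipids. Myeloid cells use them to sense fungi, mycobacteria, dead cells and altered glycans. Activating members such as Clec4n (Dectin-2), Clec4d and Clec4e (Mincle) signal through the adaptor FcRγ, encoded by Fcer1g, and the kinase Syk, and Clec5a pairs with the adaptor DAP12, encoded by Tyrobp. Inhibitory members such as Clec4a2 (DCIR) and Clec12a carry a motif in their cytoplasmic tail that recruits phosphatases. Clec4f is the galactose-binding lectin by which mouse Kupffer cells are recognised, Clec4g and Clec14a are receptors of endothelium, and Clec2 proteins such as Clec2d are ligands of NKR-P1 receptors on natural killer cells.

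Of the 30 genes, 23 lie on chromosome 6 (mm10 coordinates, GENCODE vM21 annotation). That annotation types Clec2f, which is protein-coding in the count table, as a transcribed unprocessed pseudogene. A first cluster of 9 genes runs over 368 kb at chr6:122921848-123289870 and holds Clec4a1, Clec4a3, Clec4a4, Clec4b1, Clec4a2, Clec4b2, Clec4n, Clec4d and Clec4e in that order. A second cluster of 11 genes runs over 790 kb at chr6:128662385-129452000, from Clec2h to Clec1a, with the Clec2 ligands on its first side and Clec12a, Clec12b, Clec1b and Clec1a on the other. Clec4f (chr6:83644542-83656187), Clec5a (chr6:40574894-40585821) and Clec2l stand alone on the same chromosome. Shared sequence limits some members. Of the 50-base words in their transcripts, 15.7% for Clec4a4, 8.7% for Clec4b1 and 6.8% for Clec4a2 also occur in other genes. The gene sharing most is Clec4a2 for Clec4a4 and Clec4b1, and Clec4a4 for Clec4a2. Values of these 3 genes are uncertain to that extent. Clec1b shares 3.6% of its exonic bases with a neighbouring gene on the same strand, and Clec4g shares 5.9% with the opposite-strand gene Gm16553. The labels do not state whether strand was used in the counting.

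Promoter sequences are shown for the 5 members on which the comparisons below turn. Clec4f and Clec5a had their highest WT means in Kupffer cells and microglia, and the alveolar values of Clec4a1, Clec4a2 and Clec4a3 were lower in KO. They are RefSeq sequences of GRCm38.p6 upstream of the RefSeq start, 5′ to 3′ on the gene's strand, trimmed of bases that GENCODE places in an exon. The Clec4a2 sequence lies inside the gene as GENCODE places it (chr6:123106428-123143999), downstream of the start given there. Capitals mark the Maf recognition core TGCTGA or its form on the opposite strand, which reads TCAGCA.
Clec4f, chr6:83656188-83656366, minus strand: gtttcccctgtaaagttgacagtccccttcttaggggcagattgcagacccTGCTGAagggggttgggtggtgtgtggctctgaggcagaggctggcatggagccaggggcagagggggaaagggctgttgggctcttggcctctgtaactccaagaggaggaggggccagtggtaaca
Clec5a, chr6:40585822-40586055, minus strand: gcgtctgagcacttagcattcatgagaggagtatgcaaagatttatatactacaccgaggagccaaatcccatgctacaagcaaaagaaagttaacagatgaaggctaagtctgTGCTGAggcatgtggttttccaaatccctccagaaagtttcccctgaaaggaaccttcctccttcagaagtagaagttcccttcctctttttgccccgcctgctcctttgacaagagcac
Clec4a2, chr6:123122440-123122621, plus strand: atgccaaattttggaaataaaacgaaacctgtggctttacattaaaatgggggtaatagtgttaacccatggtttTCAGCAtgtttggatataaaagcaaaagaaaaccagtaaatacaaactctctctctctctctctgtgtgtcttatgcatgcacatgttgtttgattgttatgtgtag
Clec4a1, chr6:122921598-122921847, plus strand: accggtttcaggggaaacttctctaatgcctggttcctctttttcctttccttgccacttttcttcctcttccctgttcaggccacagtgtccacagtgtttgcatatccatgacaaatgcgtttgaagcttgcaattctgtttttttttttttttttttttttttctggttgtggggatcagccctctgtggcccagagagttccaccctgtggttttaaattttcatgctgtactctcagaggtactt
Clec4a3, chr6:122952265-122952514, plus strand: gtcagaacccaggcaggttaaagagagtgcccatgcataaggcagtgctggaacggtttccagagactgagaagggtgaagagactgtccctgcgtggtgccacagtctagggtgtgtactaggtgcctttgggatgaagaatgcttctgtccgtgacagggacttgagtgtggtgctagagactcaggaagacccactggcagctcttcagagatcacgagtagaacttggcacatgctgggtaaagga

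The 250 bases before the RefSeq start were searched on both strands in the 24 members that the RefSeq promoter table holds. Some windows hold bases that GENCODE places in an exon, among them all 250 for Clec12a, 154 for Clec18a and 130 for Clec4b2. The windows of Clec4a2, Clec12a, Clec12b and Clec18a lie inside these genes as GENCODE places them. Such bases were not counted for all promoters. TGCTGA occurred before 8 of the 24 genes (Clec5a, Clec4f, Clec4a2, Clec2h, Clec2g, Clec2e, Clec2d and Clec16a) and in 15.8% of all 27025 promoters. The E-box CACCTG, the form that ZEB factors bind, occurred in 1 (Clec2e) and in 17.1% of all promoters. GGAAGT, a core that the macrophage factor PU.1 accepts, occurred in 4 (Clec4f, Clec4a2, Clec4d and Clec2m) and in 20.0%. The GGAAGT matches of Clec4f and Clec4a2 lie in the trimmed exonic bases, and no match overlapped one of another motif. Matches are descriptions of these windows and say nothing of binding.

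Total counts per library ranged from 50449347 to 65981787. Nothing in the labels ties a replicate to an animal of its own, and p-values therefore cover only how far these samples spread, and that may be technical. In every group, the mean of each marker gene listed for its own macrophage type was at least 1 CPM (read counts scaled to the library total). Kupffer KO replicate 3 stood apart from the other 5 Kupffer libraries. Its 8 endothelial markers that no other marker list holds summed to 2116 CPM, against 4643 and 5576 in the other KO libraries and 5395 to 6783 in WT, and Kupffer results are therefore also given without it. In bulk samples, fewer cells of a type and less RNA per cell cannot be told apart.

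The family was expressed in each macrophage type, with a different make-up in each. A mean of at least 1 CPM was reached in WT by 18 of 30 genes in Kupffer cells, 17 in alveolar macrophages, 13 in splenic macrophages and 9 in microglia. Clec16a, Clec4a1, Clec4a2, Clec4a3, Clec4a4 and Clec4b1 reached it in all 4 types. At the other end, 11 genes stayed under 1 CPM in every group of either genotype: Clec2e, Clec2m, Clec2h, Clec2f, Clec18a, Clec12b, Clec11a, Clec3a, Clec2g, Clec3b and Clec4b2. Among the remaining 19 genes, the highest WT mean lay in splenic macrophages for 7, in Kupffer cells for 6, in alveolar macrophages for 5 and in microglia for 1, Clec5a.

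**Figure D1:**
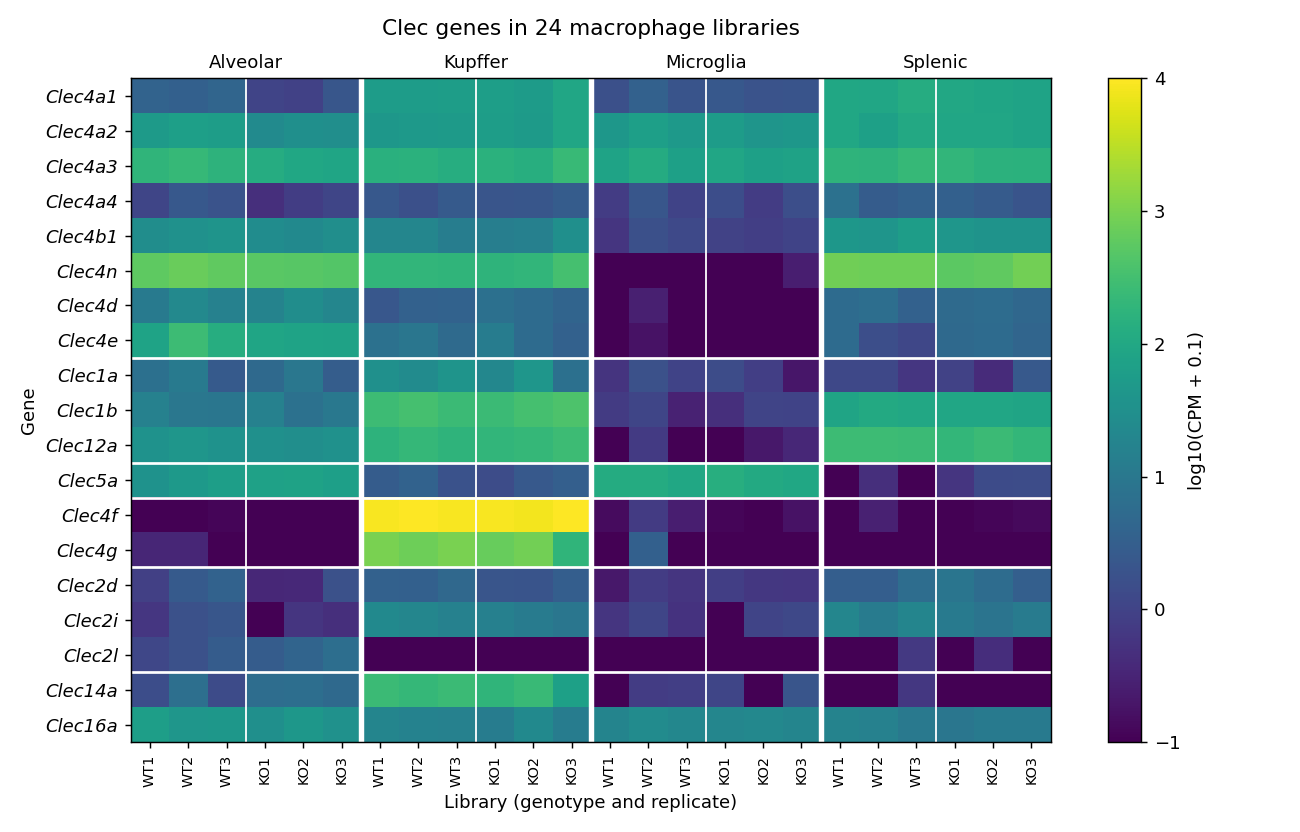
Levels of the 19 Clec genes that reached a mean of 1 CPM in any group, as log10(CPM + 0.1), in each of the 24 libraries (columns, by cell type and genotype). White lines part the genes into the Clec4a to Clec4e cluster, the Clec1 and Clec12 receptors, Clec5a, the pair Clec4f and Clec4g, the Clec2 ligands and other genes. Clec4f and Clec4g are bright in the Kupffer libraries, and Clec4n is dark in the microglial ones.

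On the length-scaled TPM values (transcript abundance scaled by length and library), which allow levels of different genes to be compared, WT Kupffer cells held the most Clec transcript, at a sum over the 30 genes of 14570 ± 974 TPM (SD, n = 3). Splenic macrophages held 3039 ± 58.6, alveolar macrophages 2308 ± 281 and microglia 381 ± 60.8. Without Clec4f the Kupffer sum was 2706 ± 143 TPM, between the alveolar and splenic sums. The 9 genes of the Clec4a to Clec4e cluster made up 95.3% ± 0.539 of the sum in alveolar macrophages, 91.8% ± 0.479 in splenic macrophages and 72.6% ± 3.44 in microglia. In Kupffer cells they made up 7.03% ± 0.312, and Clec4f with Clec4g made up 89.5% ± 0.396.

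**Figure D2:**
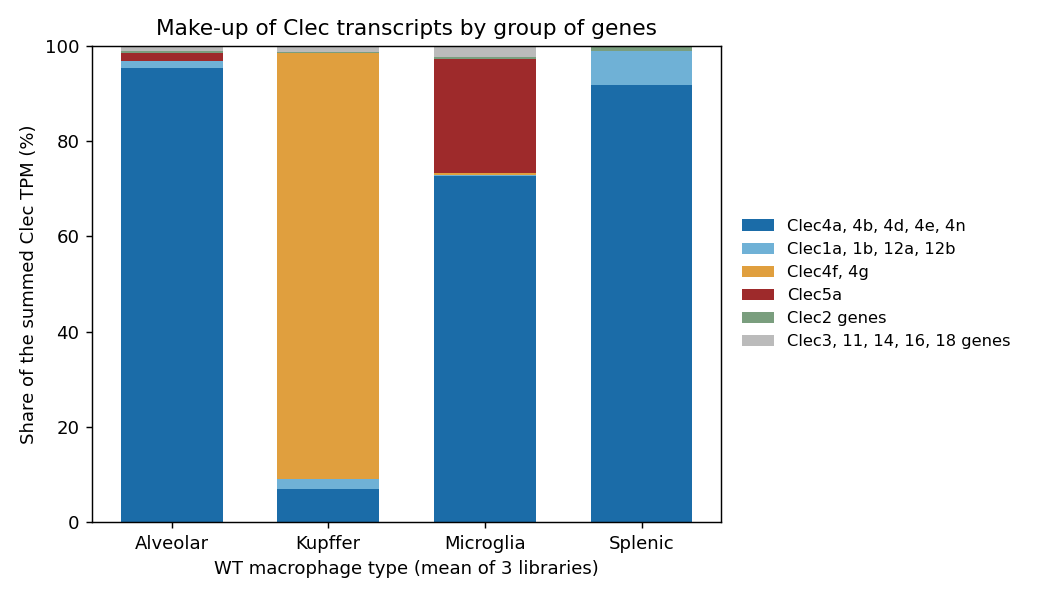
Share of the summed Clec TPM (%, vertical axis) held by 6 groups of genes in the 4 WT macrophage types, as the mean of 3 libraries. The Clec4a to Clec4e cluster takes 95.3% in alveolar and 7.03% in Kupffer cells, and Clec5a takes 23.99% in microglia.

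Across the 12 WT libraries, 20 of the 23 members tested differed between the 4 types (edgeR F test, adjusted p under 0.05), against 52.3% of all genes tested. Clec2g, Clec4b2 and Clec12b were tested and not called, and 7 members had too few counts to be tested. Each type was also set against the mean of the log2 levels of the other 3 types. In alveolar macrophages 13 members were called, where 32.0% of all genes were. There 9 members were higher (17.3% of all genes) and 4 lower (14.7%). In Kupffer cells 12 were called, where 22.8% of all genes were; 9 were higher (15.2%) and 3 lower (7.58%). In splenic macrophages 17 were called, where 24.2% of all genes were; 12 were higher (14.5%) and 5 lower (9.69%). In microglia 14 were called, where 41.9% of all genes were. There 13 were lower (20.3% of all genes) and only Clec5a was higher (21.7%). A type near 0 pulls a mean of log2 levels down, so a member called higher need not be highest in that type. Clec4n was called higher in Kupffer cells (log2 4.04, edgeR adjusted p = 6.955e-07). Its mean was 191 CPM there, 635 in alveolar macrophages, 802 in splenic macrophages and 0 in microglia.

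The FcRγ-coupled receptors of the first cluster followed different orders. Clec4n, which senses fungal mannans, was the most abundant Clec gene per length in WT splenic macrophages (1803 ± 72.1 TPM) and alveolar macrophages (1397 ± 159 TPM). Its splenic libraries read 828, 788 and 791 CPM, its alveolar ones 567, 732 and 606, and its Kupffer ones 192, 194 and 186. The splenic and alveolar values did not overlap, but their difference was not called (log2 0.42 ± 0.14 SE; adjusted p = 0.0515, edgeR), whereas alveolar macrophages stood above Kupffer cells (log2 1.86 ± 0.14; adjusted p = 1.567e-05). All 3 WT microglial libraries had 0 counts of Clec4n. Against the floor of 3 counts over that group (0.0192 CPM), the alveolar mean was at least 33150-fold higher and the Kupffer mean at least 9953-fold higher.

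Clec4e, the Mincle receptor for mycobacterial cord factor, was highest in alveolar macrophages. It read 80.4, 268 and 129 CPM in WT alveolar macrophages, 7.15, 9.07 and 5.36 in Kupffer cells and 5.40, 1.48 and 1.08 in splenic macrophages, and WT microglia held 4 counts in all. Alveolar replicate 2 was the highest library, yet all 3 alveolar libraries lay above every library of the other types (alveolar over Kupffer, log2 4.61 ± 0.69; adjusted p = 0.000484). Clec4d, its neighbour and partner, was highest in alveolar macrophages too, at 16.7 ± 5.47 CPM, but the step down to splenic macrophages (5.08 ± 1.44) was not called (adjusted p = 0.118). The step from Kupffer cells (3.11 ± 0.802) to microglia (0.0573 CPM) was called (adjusted p = 0.000921).

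Clec4a2 and Clec4a3, which encode DCIR and a relative, were present in every type and differed less. Clec4a3 stood at 195 ± 25.2 CPM in alveolar, 190 ± 29.0 in splenic, 145 ± 15.4 in Kupffer and 89.3 ± 26.5 in microglial WT libraries, and no step between neighbours in that order was called (adjusted p = 0.914, 0.0753 and 0.0709). Per length it was the leading Clec gene of WT microglia, at 208 ± 43.9 TPM. Clec4a2 was higher in splenic macrophages (88.4 ± 17.7 CPM) than in alveolar ones (59.3 ± 7.18; adjusted p = 0.0264), and the alveolar, microglial (53.0 ± 12.6) and Kupffer (48.4 ± 3.45) levels followed, with neither step called (adjusted p = 0.651 and 0.273). Kupffer cells were below the mean of the other types (log2 -0.60; adjusted p = 0.0211).

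Clec4a1 split the types more widely than its cluster neighbours of the Clec4a name. It read 97.0, 90.9 and 122 CPM in splenic macrophages, 58.4, 58.8 and 59.4 in Kupffer cells, 3.84, 3.35 and 4.18 in alveolar macrophages and 1.58, 3.44 and 1.93 in microglia. All 3 steps in that order were called (log2 1.02, 3.84 and 0.66; adjusted p = 0.0107, 1.446e-06 and 0.0464), and the alveolar and microglial libraries overlapped. Clec4b1, a related receptor of dendritic cells, was also highest in splenic macrophages (48.0 ± 10.2 CPM), next to alveolar macrophages (33.7 ± 4.63; adjusted p = 0.191), then Kupffer cells (17.6 ± 3.80) and microglia (1.07 ± 0.528). Clec4a4 ran from 4.43 ± 2.35 CPM in splenic macrophages to 1.23 ± 0.763 in microglia, with no step between neighbours called.

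Clec4f was nearly confined to Kupffer cells, where it read 8844, 10250 and 8962 CPM in WT. The WT libraries of the other types held 44 counts in microglia (34 of them in replicate 2), 10 in splenic macrophages and 1 in alveolar macrophages. Clec4g, a lectin of liver sinusoidal endothelium, read 993, 796 and 977 CPM in WT Kupffer libraries and 0 in all 6 splenic libraries, so that the Kupffer mean was at least 51250-fold above the splenic floor of 0.018 CPM. Microglial WT replicate 2 held 170 counts of Clec4g and the other 5 microglial libraries none. Clec14a, a receptor of endothelial cells, was also highest in Kupffer cells, at 244 ± 26.1 CPM in Kupffer cells and 3.10 ± 2.99 in alveolar macrophages (log2 6.14 ± 1.08; adjusted p = 0.00152). Clec1a, also known from endothelium, stood at 31.9 ± 6.32 CPM in Kupffer cells and 6.995 ± 4.55 in alveolar macrophages (adjusted p = 0.0199). These 3 endothelial members lay in libraries that carry other endothelial transcripts: the endothelial markers summed to between 5395 and 6783 CPM in WT Kupffer libraries, 190 and 253 in alveolar, 391 and 467 in microglial and 806 and 891 in splenic ones. Of the 9 listed endothelial markers, 9 reached a mean of 1 CPM in WT Kupffer libraries, 7 in alveolar, 7 in microglial and 3 in splenic ones. The part of endothelial cells in these levels was not tested.

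Clec1b (CLEC-2), the receptor for podoplanin, was highest in Kupffer cells at 267, 334 and 255 CPM, then in splenic macrophages at 84.8, 110 and 98.4 (log2 of the step 1.34 ± 0.34; adjusted p = 0.0216). Alveolar macrophages held 11.4 ± 3.49 CPM and microglia 0.615 ± 0.400, and each step down was called (adjusted p = 7.445e-05 and 1.464e-05). Platelets carry Clec1b as well, and the platelet and megakaryocyte markers summed to between 41.2 and 80.4 CPM in WT Kupffer libraries and to between 8.05 and 20.9 in splenic ones. Their part in the level of Clec1b was not tested. Clec12a, an inhibitory receptor for uric acid crystals, was highest in splenic macrophages (267, 269 and 256 CPM) and Kupffer cells (172, 210 and 182), a step that was not called (adjusted p = 0.444). Alveolar macrophages held 38.2 ± 4.10 CPM and microglia 0.198 CPM.

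Clec5a, the DAP12-coupled receptor known for binding dengue virus, was the leading Clec gene of WT microglia by count, at 120, 118 and 93.6 CPM. Alveolar macrophages read 35.8, 47.9 and 62.8 CPM, below all microglial libraries, but the step was not called (log2 1.23 ± 0.57; adjusted p = 0.109). Kupffer cells held 2.71 ± 0.944 CPM, and of the splenic WT libraries only replicate 2 had any count (0.365 CPM). Clec16a, which despite its name is an intracellular regulator of mitophagy without a typical lectin domain, stood at 50.1 ± 10.8 CPM in alveolar macrophages, 21.3 ± 3.88 in microglia, 16.7 ± 1.58 in Kupffer cells and 14.3 ± 3.53 in splenic macrophages, with only the first step called (adjusted p = 0.0011).

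Among the Clec2 ligands, Clec2i led in Kupffer cells (19.7 ± 3.83 CPM) and splenic macrophages (16.6 ± 4.29), whose levels overlapped (adjusted p = 0.981), and was lower in alveolar macrophages (1.42 ± 0.826; adjusted p = 0.000353 for the step). Clec2d stayed between 2.32 and 4.02 CPM in the 3 non-microglial WT types and at 0.431 ± 0.293 in microglia. Clec2l was seen mainly in alveolar macrophages, at 1.08, 1.63 and 2.81 CPM, and had 0 counts in WT Kupffer cells and microglia.

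The order between types was also read in the 12 KO libraries, as a separate set of samples. Of 23 members tested there, 21 differed between the types, against 56.9% of all genes. Clec4a2 in alveolar macrophages was not called against the mean of the other types in WT (log2 -0.04; adjusted p = 0.896) and was below it in KO (log2 -1.19; adjusted p = 0.000791). Clec4a3 was above the mean of the other types in WT alveolar macrophages (log2 0.53; adjusted p = 0.0277) and not called there in KO (log2 -0.39; adjusted p = 0.159).

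KO was compared with WT in the 6 libraries of each type. No member was called in any type by edgeR's quasi-likelihood test at an adjusted p under 0.05. In alveolar macrophages 20 members were tested and 0 called, where 0.317% of all genes were called (55 of 17369), and 5 members against 12.5% of all genes had an unadjusted p under 0.05. In Kupffer cells 21 were tested and 0 called (0.0629% of all genes), with 2 members and 6.94% of all genes under an unadjusted 0.05. In microglia 13 were tested and 0 called (0.0% of all genes), with 0 members and 4.44% of all genes under an unadjusted 0.05. In splenic macrophages 16 were tested and 0 called (0.747% of all genes), with 1 member and 11.7% of all genes under it. DESeq2 called 3 members in alveolar macrophages, where it called 5.32% of all genes, and 0 in Kupffer cells, microglia and splenic macrophages, where it called 2.17%, 0.521% and 5.08%.

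**Figure D3:**
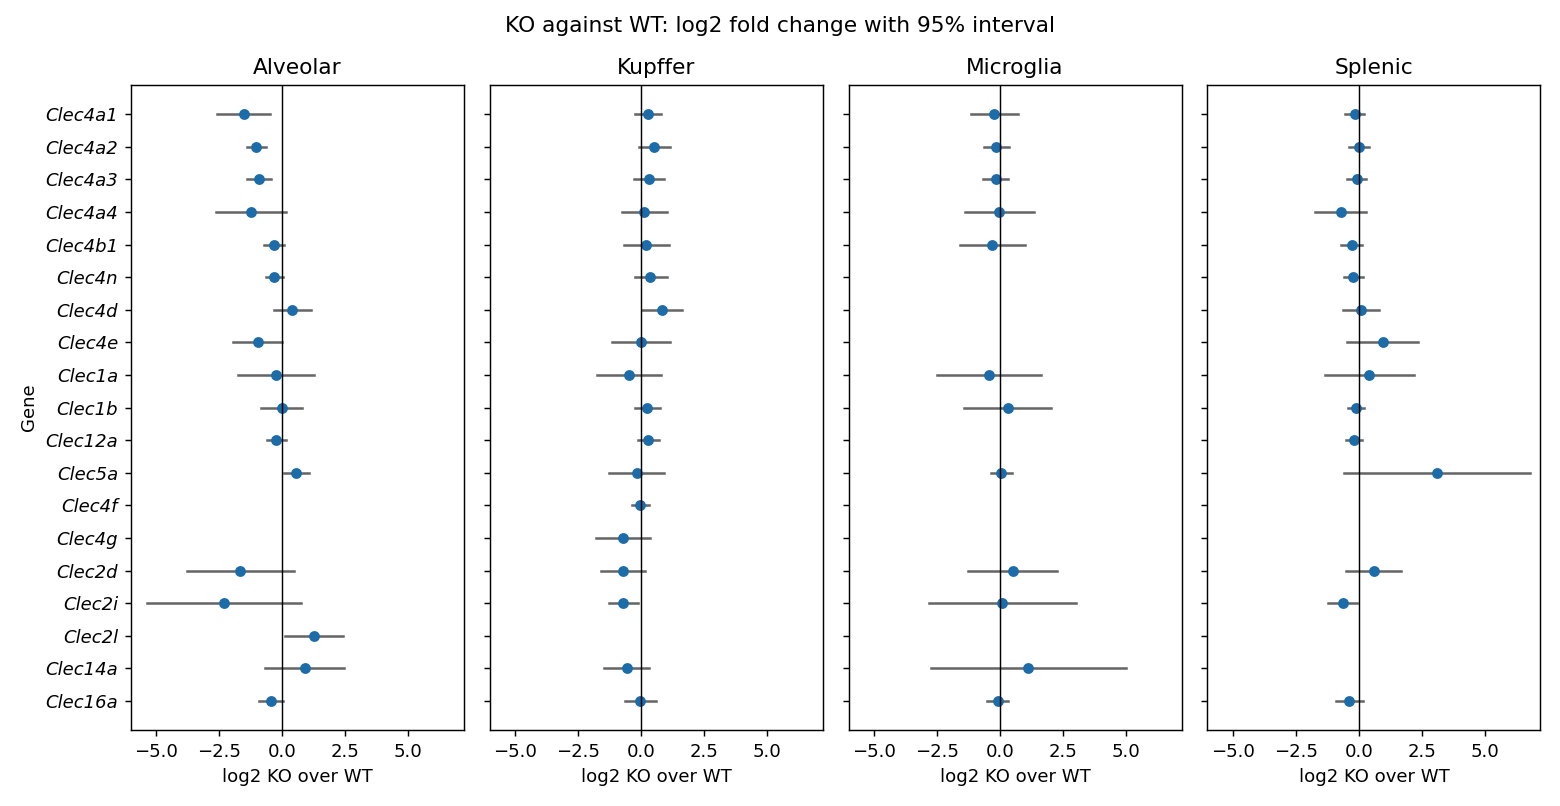
Log2 fold change of KO over WT (horizontal axes) with its 95% interval for each Clec gene of the family plot, in the 4 macrophage types. Rows without a point were not tested in that type. In alveolar macrophages the intervals of Clec4a1, Clec4a2 and Clec4a3 lie below 0, while in the other 3 types the intervals of these genes span 0.

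In alveolar macrophages 15 of the 20 members tested had values below WT, with a median log2 fold change of -0.38 against -0.01 over all genes. The lowest unadjusted p-values belonged to neighbours in the first cluster. Clec4a2, the inhibitory receptor DCIR, read 51.9, 66.3 and 59.6 CPM in the WT libraries against 25.1, 31.13 and 29.97 in KO. Every KO library lay below every WT library, and the WT mean was 2.03-fold the KO mean (log2 -1.02 ± 0.16 SE; 95% interval -1.39 to -0.65). Its unadjusted p of 0.0003 gave an adjusted p of 0.0707 by edgeR, so it was not called. It was called by DESeq2 (adjusted p = 4.319e-07) and, among 24 libraries fitted at once, by edgeR (adjusted p = 0.0241). Over all alternatives its adjusted p ranged from 4.319e-07 to 0.27.

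Clec4a3, a close relative of DCIR, read 189, 223 and 173 CPM in the WT libraries against 126, 93.9 and 85.5 in KO, again without overlap. Its log2 fold change was -0.91 ± 0.20 (95% interval -1.38 to -0.44; adjusted p = 0.126 by edgeR, 0.00123 by DESeq2, 0.0689 in the fit of all 24 libraries, range over alternatives 0.00123 to 0.389). Clec4a1 was low in this cell type, at 3.84, 3.35 and 4.18 CPM in the WT libraries against 0.983, 0.809 and 2.08 in KO. The groups did not overlap and the WT mean was 2.89-fold the KO mean on the fitted scale (log2 -1.53 ± 0.45; 95% interval -2.58 to -0.48; adjusted p = 0.224 by edgeR, 0.0466 by DESeq2, range 0.0117 to 0.483). The lowest of these came from the fit of all 24 libraries, which called 2 members, Clec4a1 and Clec4a2, where it called 1.24% of all genes in this contrast. Without alveolar KO replicate 1 or 2 that fit called 0 members, and without WT replicate 2 or KO replicate 3 it no longer called Clec4a2.

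**Figure D4:**
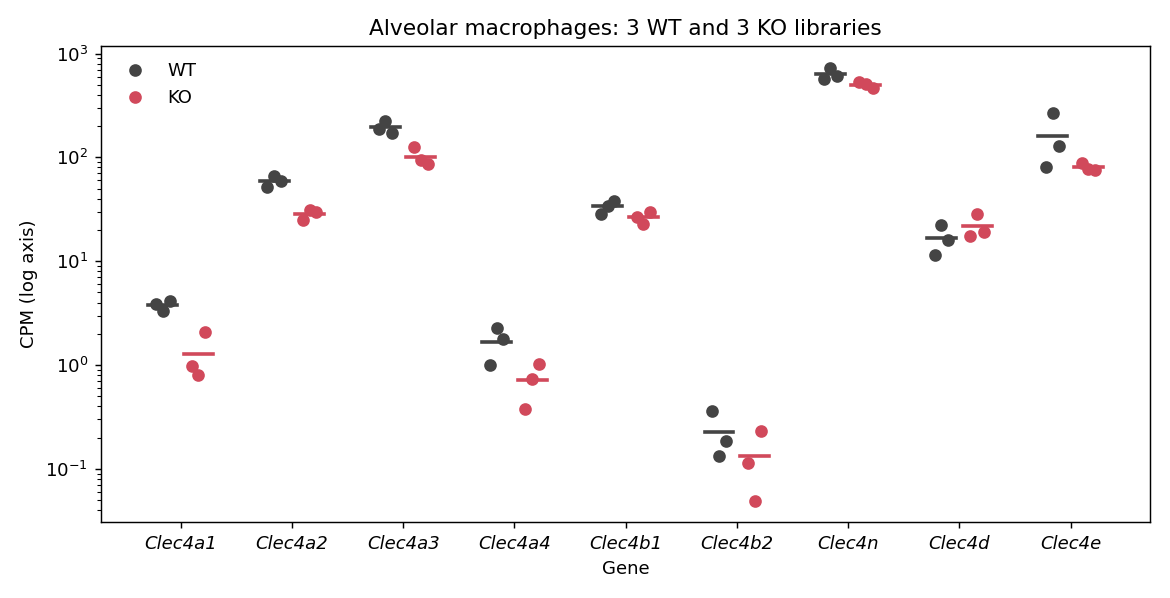
CPM (log axis) of the 9 genes of the Clec4a to Clec4e cluster in 3 WT (dark grey) and 3 KO (red) alveolar macrophage libraries, with each group's mean as a bar. The KO points of Clec4a1, Clec4a2, Clec4a3 and Clec4n lie below all WT points of the same gene, and those of Clec4d do not.

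The rest of the cluster was less apart. Clec4n read 567, 732 and 606 CPM in the WT libraries against 532, 504 and 468 in KO, without overlap but with a small difference (log2 -0.32 ± 0.15; 95% interval -0.66 to 0.03; adjusted p = 0.438). Clec4e read 80.4, 268 and 129 CPM in the WT libraries against 88.1, 77.7 and 74.9 in KO, so the groups overlapped, with WT replicate 2 far above the rest (log2 -0.98 ± 0.42; adjusted p = 0.404). Without that library the log2 fold change was -0.32 (adjusted p = 0.791, range over alternatives 0.121 to 0.791). Clec4d was the only cluster gene above WT, at 21.8 ± 5.98 against 16.7 ± 5.47 CPM (log2 0.40 ± 0.31; adjusted p = 0.689). Over the 9 genes the median log2 fold change was -0.91. Their summed TPM was 2034, 2522 and 2045 in WT against 1624, 1522 and 1428 in KO, so no KO library reached a WT one. Clec4a2, Clec4a4 and Clec4b1 partly share sequence, so their values are not independent measurements. Clec4a1 and Clec4a3 shared 0.0% of their 50-base words with other genes. The cluster genes stand side by side, and whether neighbours vary together was not tested.

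Markers of other cells differed alongside these values in the alveolar libraries. B cell markers summed to between 161 and 199 CPM in the WT libraries and to between 89.7 and 116 in KO, and most of both sums was Cd22 (145 and 104 CPM). Monocyte markers held by no other list summed to between 87.9 and 107 CPM in the WT libraries and to between 52.2 and 65.9 in KO. Dendritic cell markers held by no other list summed to between 53.0 and 78.2 CPM in the WT libraries and to between 36.3 and 52.4 in KO. Of the 7 dendritic cell markers tested, 4 had a log2 fold change below 0, with a median of -0.28. Among them Cd209a, a C-type lectin of dendritic cells, fell from 14.8 to 0.00546 CPM (edgeR adjusted p = 0.00846). It was the only 1 of them with an unadjusted p under 0.05 by edgeR. Plasmacytoid dendritic cell markers held by no other list summed to between 58.7 and 68.1 CPM in WT and to between 37.4 and 56.1 in KO. Neutrophil markers ran the other way, from 236 to 399 CPM in WT and 572 to 705 in KO, and so did endothelial markers, from 190 to 253 in WT and 342 to 457 in KO. NK and T cell markers summed to between 17.2 and 23.3 CPM in WT and to between 25.8 and 32.8 in KO, with 3 of the 6 tested below 0. Their part in the values of the Clec genes was not tested.

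Outside the cluster, Clec5a was above WT in alveolar macrophages, at 71.4, 75.1 and 64.9 CPM in KO and 35.8, 47.9 and 62.8 in WT. The groups did not overlap by a small margin (log2 0.56 ± 0.21; 95% interval 0.07 to 1.05; adjusted p = 0.329). Clec2l read 2.77, 3.91 and 6.38 CPM in KO and 1.08, 1.63 and 2.81 in WT (log2 1.26 ± 0.48; adjusted p = 0.347). Clec12a stood at 31.8 ± 2.31 CPM in KO and 38.2 ± 4.10 in WT (adjusted p = 0.608), and Clec1b at 10.9 ± 4.16 and 11.4 ± 3.49 (adjusted p = 0.993). In all, 6 members lay without overlap below WT, where 11.8% of all genes did (Clec12a, Clec2i, Clec4a1, Clec4a2, Clec4a3 and Clec4n), and Clec5a lay above it, where 7.61% of all genes did.

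In Kupffer cells the genotypes overlapped for Clec4f, at 8844, 10250 and 8962 CPM in the WT libraries against 9121, 8175 and 9809 in KO (log2 -0.03 ± 0.14; 95% interval -0.35 to 0.30; adjusted p = 0.988). Over the 21 members tested the median log2 fold change was 0.0, with 11 below 0 and 10 above. Clec2i had the lowest unadjusted p, at 23.3, 20.0 and 15.7 CPM in the WT libraries against 14.9, 11.7 and 9.15 in KO (log2 -0.71 ± 0.24; 95% interval -1.27 to -0.14; adjusted p = 0.607). Clec4d followed, at 2.18, 3.49 and 3.64 CPM in the WT libraries against 6.79, 5.62 and 4.01 in KO (log2 0.83 ± 0.34; adjusted p = 0.702). Clec2d, Clec2g and Clec2i lay without overlap below WT, where 7.04% of all genes did, and Clec4d lay above it, where 5.87% did.

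Among the KO Kupffer libraries, replicate 3 stood farthest from the others for Clec4g, Clec14a, Clec4n, Clec4a3 and Clec4a2. This did not hold for every member, and for Clec4e replicate 1 stood farthest. Clec4g read 993, 796 and 977 CPM in the WT libraries against 674, 850 and 188 in KO, so replicate 3 had 24.7% of the mean of the other KO libraries. Clec14a read 260, 214 and 258 CPM in the WT libraries against 184, 244 and 69.2 in KO, and had 32.4% of that mean in replicate 3. Clec1a had 21.9% there, and the endothelial genes Stab2, Kdr, Ptprb and Egfl7 had 50.7%, 37.2%, 30.9% and 22.6%. Some myeloid members stood highest there: Clec4n read 182, 199 and 342 CPM in KO, Clec4a3 159, 135 and 236, and Clec4a2 60.7, 51.8 and 92.7. Others stood lowest there, with Clec4e at 12.3, 5.50 and 3.47 CPM in KO and Clec4d at 6.79, 5.62 and 4.01. The 6 Kupffer markers that no other list holds summed to 8355, 7327 and 11280 CPM in the KO libraries.

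With replicate 3, the log2 fold change was -0.70 ± 0.46 for Clec4g, -0.57 ± 0.38 for Clec14a and -0.48 ± 0.54 for Clec1a (adjusted p = 0.846, 0.85 and 0.934). Without it the values were -0.30 ± 0.14, -0.21 ± 0.15 and -0.05 ± 0.31 (adjusted p = 0.769, 0.928 and 0.998). Clec4n went from 0.37 ± 0.27 to -0.02 ± 0.11, Clec4a3 from 0.32 ± 0.25 to 0.01 ± 0.16 and Clec4a2 from 0.53 ± 0.26 to 0.20 ± 0.16. Clec1b read 267, 334 and 255 CPM in the WT libraries, with KO at 259.5, 339 and 404 (log2 0.25 ± 0.21; 0.04 ± 0.17 without replicate 3). Clec4f was -0.13 ± 0.12 without it, and Clec2i -0.57 ± 0.25. No member was called without it either, where 0.0196% of all genes were called. B cell markers summed to between 393 and 610 CPM in the WT libraries and to between 57.1 and 104 in KO Kupffer libraries, and their part in the values of Clec2i and Clec2d, which lymphocytes can express, was not tested. Clec1a was named here after its values were seen.

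**Figure D5:**
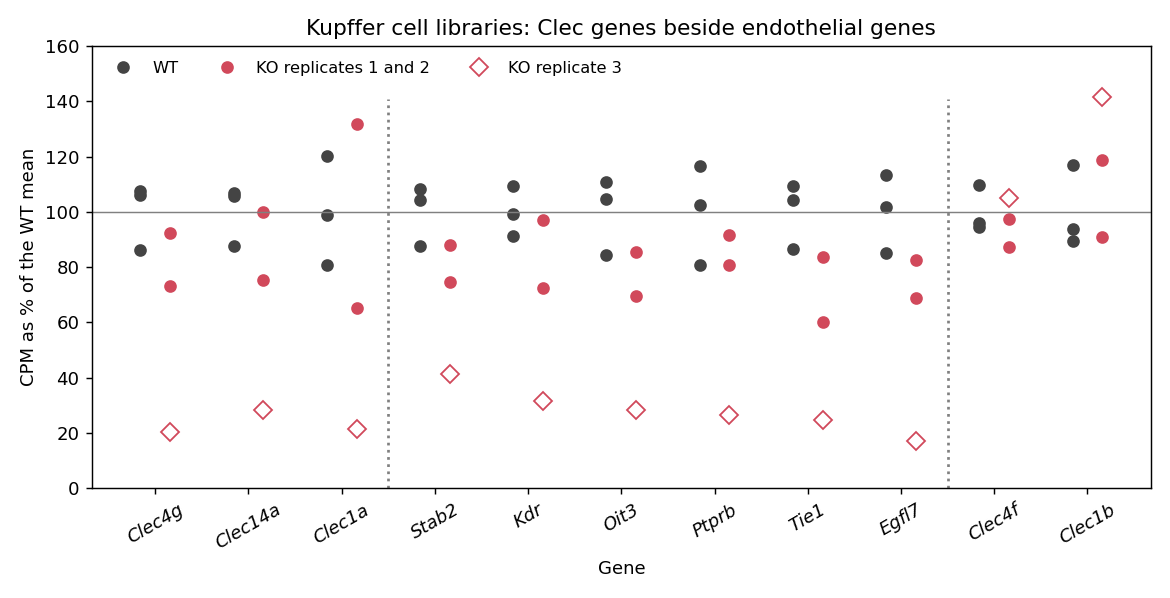
Levels in the 6 Kupffer libraries as % of the WT mean (vertical axis) of 3 Clec genes known from endothelium (left), 6 endothelial markers (middle) and Clec4f with Clec1b (right). KO replicate 3, the open diamond, is the lowest library for each gene of the left and middle parts, and is not for Clec4f or Clec1b.

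In microglia no member lay without overlap between the genotypes, where 5.58% of all genes did above WT and 5.45% below it. Clec5a read 120, 118 and 93.6 CPM in the WT libraries against 139, 110 and 96.2 in KO (log2 0.05 ± 0.18; 95% interval -0.36 to 0.47; adjusted p = 0.995). Clec4a3, with the lowest unadjusted p of 0.454, read 79.6, 119 and 68.9 CPM in the WT libraries against 92.2, 69.1 and 75.1 in KO (log2 -0.17 ± 0.22; 95% interval -0.68 to 0.33). Clec4a2 read 43.5, 67.3 and 48.0 in WT against 58.2, 40.5 and 44.7 in KO (log2 -0.14 ± 0.21; 95% interval -0.62 to 0.34). Clec16a read 17.7, 25.4 and 20.9 CPM in the WT libraries against 19.5, 21.6 and 18.95 in KO, and Clec14a read 0, 0.669 and 0.730 CPM in the WT libraries against 1.02, 0 and 2.002 in KO. Clec4n was at 0 counts in 5 of 6 microglial libraries and at 8 counts in KO replicate 3.

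In splenic macrophages Clec2i had the lowest unadjusted p among the members. It read 19.4, 11.7 and 18.8 CPM in the WT libraries against 11.1, 8.27 and 11.8 in KO, with overlap (log2 -0.64 ± 0.24; 95% interval -1.21 to -0.07; adjusted p = 0.371). B cell markers summed to between 604 and 992 CPM in these WT libraries and to between 46.3 and 57.6 in KO, and their part in this value was not tested. The leading receptors overlapped too: Clec4n read 828, 788 and 791 CPM in the WT libraries against 547, 613 and 861 in KO (log2 -0.22 ± 0.16; adjusted p = 0.663), and Clec12a read 267, 269 and 256 in WT against 206, 260 and 207 in KO (log2 -0.19 ± 0.14; adjusted p = 0.666). Clec4a3 read 177, 169 and 223 CPM in the WT libraries against 199, 164 and 156 in KO. Clec4a1 read 97.0, 90.9 and 122 against 99.4, 88.8 and 80.8, and Clec4a2 stood at 88.4 ± 17.7 in WT and 86.6 ± 6.29 in KO, so none of these receptors was apart between the genotypes. Clec4a4 read 7.11, 2.76 and 3.41 CPM in the WT libraries against 3.29, 2.58 and 1.85 in KO (log2 -0.72 ± 0.44; adjusted p = 0.592).

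Clec5a was the only member whose splenic groups did not overlap, where 8.02% of all genes lay above WT in this way and 11.9% below it, and it passed the filter on low counts only through its KO libraries. It read 0, 0.365 and 0 CPM in the WT libraries against 0.489, 1.30 and 1.33 in KO. Since it entered the test only through the group where it was high, its fitted value is given as a description: log2 3.09, which moved between 2.52 and 8.90 when single libraries were left out. In the fit of all 24 libraries, where 0.603% of all genes were called in this contrast, edgeR did not call it, and DESeq2 did. Its splenic KO mean of 1.04 ± 0.476 CPM compares with 115 ± 21.6 in KO microglia. Neutrophil markers moved with it, from between 132 and 165 CPM in WT to between 316 and 367 in KO. Monocyte markers held by no other list summed to between 103 and 158 CPM in WT against between 47.0 and 59.6 in KO. With Chil3, which the alveolar list also holds, the monocyte sums were 108 to 160 CPM in WT and 95.8 to 103 in KO. Of the 8 monocyte markers tested, 3 had a log2 fold change below 0. Both cell types are known to express Clec5a, and their part in its value was not tested.

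The difference of the KO effect between the 4 cell types was tested in the fit of all 24 libraries, where 0 of 24 members and 0.524% of all genes were called. Clec4a2 came nearest (adjusted p = 0.0866), followed by Clec4a1 (0.133), Clec5a (0.253) and Clec4a3 (0.281). DESeq2 called Clec4a2, Clec4a1 and Clec5a (adjusted p = 0.00228, 0.0057 and 0.00847), where it called 5.13% of all genes. The mean KO effect over the 4 types was called for 0 of 24 members, against 0.624% of all genes. Clec5a had the lowest unadjusted p in this test (log2 0.89 ± 0.28; adjusted p = 0.226). In the fits of single types its log2 was 3.09 in splenic macrophages, 0.56 in alveolar macrophages, 0.05 in microglia and -0.18 in Kupffer cells. The splenic value, the largest, is the one given above only as a description. In all, 4 members had an unadjusted p under 0.05 in the test of the mean effect, where 9.79% of all genes did, and 5 in the test of the difference, where 11.6% did. DESeq2, which called 2.92% of all genes for this mean effect, called Clec5a (adjusted p = 0.0451) and Clec4g, the latter with 0 counts in all splenic libraries and in the KO alveolar and KO microglial ones.

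The signalling genes downstream of these receptors were read from a list of 23, all of which were tested in each type. By edgeR 0 were called in any, with an unadjusted p under 0.05 for 3 in alveolar macrophages, 1 in Kupffer cells, 0 in microglia and 3 in splenic macrophages. Of all genes, 12.5%, 6.94%, 4.44% and 11.7% had such a p in these types. DESeq2 called 1 of the 23, lower in KO alveolar macrophages, where it called 2.92% of all genes lower, and 0 in the other types. Fcer1g, the adaptor of Clec4n and Clec4e, stood at 724 ± 35.4 CPM in WT against 810 ± 11.6 in KO alveolar macrophages (log2 0.19 ± 0.09; adjusted p = 0.449), and Tyrobp, the adaptor of Clec5a, at 769 ± 131 and 984 ± 45.4 (log2 0.39 ± 0.14; adjusted p = 0.316). Syk, the kinase that both adaptors recruit, stood at 571 ± 104 and 560 ± 57.8 CPM (adjusted p = 0.995). In WT microglia, where Clec4n was at 0 counts, Fcer1g stood at 792 ± 276 CPM and Syk at 262 ± 71.0. The median log2 fold change over the 23 genes was 0.08 in alveolar macrophages, 0.11 in Kupffer cells, 0.08 in microglia and -0.08 in splenic macrophages.

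Among 40 other genes with a C-type lectin domain, 26 were tested in alveolar macrophages and 24 in splenic macrophages. Cd209a and Fcer2a fell in KO alveolar macrophages, and Fcer2a and Cd72 in KO splenic macrophages (edgeR adjusted p = 0.00846, 0.0258, 0.0352 and 0.0264). In these types edgeR called 0.317% and 0.747% of all genes. Fcer2a, the low-affinity IgE receptor of B cells, went from 2.93 ± 0.0444 CPM to 0 counts in alveolar macrophages. Cd72, a B cell receptor, went from 53.8 ± 32.3 to 6.08 ± 0.681 CPM in splenic macrophages. In Kupffer cells, where B cell markers summed to between 393 and 610 CPM in WT against between 57.1 and 104 in KO, Cd72 stood at 183 ± 10.7 and 164 ± 4.35 CPM and was not called (edgeR adjusted p = 0.874). The part of B cells in these values was not tested. The mannose receptor Mrc1 stood at 1305 ± 141 CPM in WT against 1052 ± 53.6 in KO alveolar macrophages (log2 -0.29 ± 0.10; adjusted p = 0.324 by edgeR). DESeq2 called 2 of these genes higher and 8 lower in alveolar macrophages, where it called 2.41% and 2.92% of all genes. In splenic macrophages it called 3 higher and 6 lower, against 2.75% and 2.33% of all genes. In Kupffer cells edgeR called 0 of 37, with 15 at an unadjusted p under 0.05, against 6.94% of all genes. There DESeq2 called 2 higher and 7 lower, against 0.682% and 1.49% of all genes. In microglia edgeR called 0 of 14, with 0 at that unadjusted p, and DESeq2 also 0. Of 6 listed ligands and receptors paired with members, 5 were found and edgeR called 0 in any type. An unadjusted p under 0.05 was given to 1 in alveolar and 1 in splenic macrophages, against 12.5% and 11.7% of all genes. DESeq2 called 1 higher in each of these types, against 2.41% and 2.75% of all genes, and 0 in the other types. The nearest was Pdpn, the ligand of Clec1b, at 2.54, 1.63 and 4.43 CPM in the WT libraries against 17.9, 13.4 and 11.2 in KO alveolar macrophages (log2 2.35 ± 0.40, edgeR adjusted p = 0.082). Podoplanin is also carried by alveolar epithelium. Airway and alveolar epithelial markers summed to between 155 and 346 CPM in the WT libraries and to between 362 and 461 in KO. Of the 5 such markers tested, 3 had a log2 fold change below 0, with a median of -0.28. Their part in the value of Pdpn was not tested.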

How the data were processed

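The authors deposited tables of gene counts, library-scaled counts (CPM) and TPM with a column for each library. Every test used the deposited counts, which were whole numbers and not normalized. Recomputing CPM from the counts gave the deposited CPM to within 4.7e-11. Of the TPM columns, 4 splenic ones are named a score, with values the authors scaled by length and library before they were deposited. The name is given because repeated rows took the sum of the authors' values above their common total. These 4 columns were used as deposited, as TPM, in the same way as the other TPM columns. Of 55774 rows, 287 identical repeats were dropped. The submitters' processing notes name mm10, DRAGEN, STAR, Subread, featureCounts and Salmon, without their roles.

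KO was compared with WT by the quasi-likelihood test, in both directions, of edgeR 4.0.16 (R 4.3.3; TMM, filterByExpr with a minimum count of 10, Benjamini-Hochberg over all genes tested, 0.05) in the 6 libraries of each type. The difference and mean of the effects came from all 24 libraries, and the type comparisons from 12. DESeq2 1.42.0, other filters and scaling, a replicate block and leaving out each library were alternatives. The scripts were tested on simulated data. No library was a copy: replicates differed with a chi-square of at least 29.4 per degree of freedom.

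Members and lists were chosen with earlier results of these data known. Per-library values are given for at most 4 members highest in each WT type and for the 3 smallest p-values per KO comparison, others as means or by choice after their values were seen.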

Additional observations from a re-analysis of the deposited data

How the results depend on the processing

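In the alveolar comparison of KO with WT, where edgeR called 0 members, DESeq2 called 3 (Clec4a1, Clec4a2 and Clec4a3), the fit of all 24 libraries 2 (Clec4a1 and Clec4a2), and both the fit with no filter and the stricter filter 1 (Clec4a2). Leaving out single libraries gave 0 to 0 in the fit of this type's own 6 libraries and 0 to 3 in that of all 24. In the other 3 types each alternative of the 6-library fits gave 0 members. The fit of all 24 called splenic Clec5a with DESeq2, DESeq2 size factors or no filter, and without splenic WT replicate 2, splenic KO replicate 1 or Kupffer KO replicate 3, and DESeq2 on all 24 called Clec4g in microglia and in alveolar macrophages. For the difference of the effect between types, DESeq2 called 3 members and leaving out single libraries 0 to 1 (Clec4a1 without alveolar KO replicate 3, Clec4a2 without Kupffer KO replicate 2, Clec5a without splenic WT replicate 2). For the mean effect DESeq2 called 2, and leaving out libraries 0 to 1 (Clec5a without splenic WT replicate 2). The counts of members that differ between WT types stayed within 1.5 times of the main count in each alternative run, at 17 to 22 of the family for the F test. The 12 KO libraries without Kupffer KO replicate 3 were added after seeing the data, and gave 22 members between the types and 12 for Kupffer cells.

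Signs turned when single libraries were left out, for values that were not called: Clec4f in Kupffer cells (-0.13 to 0.08), Clec5a (-0.09 to 0.17), Clec4a3 (-0.32 to 0.07), Clec4a2 (-0.29 to 0.05) and Clec16a (-0.18 to 0.04) in microglia, and Clec4a3 in splenic macrophages (-0.21 to 0.06). The alveolar log2 fold changes of Clec4a2 (-1.12 to -0.90), Clec4a3 (-1.12 to -0.76) and Clec4a1 (-2.02 to -1.29) kept their sign without each library.

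Same-numbered WT and KO libraries did not deviate together, so the numbers were not taken as pairs. With the replicate block in the 6-library fits, 0 members were called in each KO comparison and 18 between the WT types, and the alveolar log2 fold change of Clec4a2 was -1.01 ± 0.13 (adjusted p = 0.2016). In the fit of all 24 libraries the block left 1 alveolar call, Clec4a1. Depth limits the precision for genes under 1 CPM.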
